A study of Homo sapiens with 24 samples.

Results

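The comparison set 3 libraries labelled D146N fraction 7 against 3 libraries labelled WT fraction 7, 6 of the 24 libraries in the series, taken by genotype and fraction label alone. All came from 293T, a line derived from human embryonic kidney, in which DIS3 had been knocked down with the hairpin sh2. The cells then carried a restored DIS3, wild type in one set (WT) and the D146N mutant in the other, so the knockdown and a restoring construct were shared by both groups. Cytoplasmic RNA was spread over a sucrose density gradient, and fractions 3, 4, 7 and 8 were sequenced after ribosomal RNA depletion in 3 biological replicate sets per genotype. Neither the end of the gradient at which counting of fractions began, nor whether it was the same end for both genotypes, is in the labels. A difference of genotype and a difference of numbering therefore cannot be told apart, and every difference below is one between these libraries.

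The RNA exosome is a complex that degrades and trims RNA from its 3′ end, and DIS3 supplies its main nuclease activity. DIS3 also carries an endonuclease in its PIN domain, and the D146N change lies in that domain and is known to remove the endonuclease activity. In a sucrose gradient, small free ribonucleoproteins stay near the top, and mRNAs carrying several ribosomes travel toward the bottom. How far a translated mRNA travels depends on how many ribosomes it holds, and so in part on the length of its coding sequence.

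The 6 libraries were distinct and deep. The WT fraction 7 libraries held 30.4 M to 32.2 M counts, and the D146N fraction 7 libraries held 21.2 M to 22.3 M counts. Between 22608 and 22931 gene rows had a count in WT and between 23771 and 23942 in D146N. Log2 levels of replicates correlated across genes with Pearson's r of 0.994 to 0.996, over genes that are not independent replicates. The 10 largest rows took 71.4% to 73.1% of all counts in WT and 48.6% to 49.0% in D146N. One library outside the comparison, WT fraction 8 replicate 3, stood apart from its group, with 65.6% in its 10 largest rows against 71.1% and 71.4% in the other WT fraction 8 libraries. It enters the filter on low counts, the shared estimate of spread and the fraction 8 values. Genes named by the fixed rule whose call changes without it are given both ways. For genes named after their values were seen, calls without it are not given here.

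This difference in makeup decides the scale on which any gene is read. Factors from the trimmed mean of M values (TMM), which set most genes to little change, were 0.349 to 0.373 in WT and 2.80 to 2.83 in D146N. The median gene differed by 0.16 on the log2 scale after TMM and by 3.08 on CPM, counts per 1 M counts of the library total. A gene with a TMM difference near 0 was thus several times higher in D146N as a share of the library. Levels below are in CPM of the library total, log2 differences are after TMM unless said otherwise, and each is D146N minus WT.

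Of 18907 genes tested with edgeR's quasi-likelihood test, 12000 (63.5%) passed an adjusted p under 0.05 after TMM. Of these, 6126 (32.4%) were higher in the D146N libraries and 5874 (31.1%) lower. At least 2-fold differences were found for 8049 genes (42.6%), 3335 higher (17.6%) and 4714 lower (24.9%). On library totals 16821 genes (89.0%) passed and the split was different, with 15799 genes higher (83.6%) and 1022 lower (5.41%). The groups did not overlap in TMM-scaled CPM for 13384 genes (70.8%), and in CPM of the library total D146N lay above WT for 15748 genes (83.3%) and below it for 1162 (6.15%). With so large a background, a called gene is not in itself a result about that gene, and gene groups are read below against these shares.

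DIS3, the gene that was knocked down and restored (chr13:72752169-72781900, hg38), had 4.54, 5.03 and 5.23 CPM in WT and 86.7, 115 and 102 CPM in D146N. The groups did not overlap, and the log2 difference was 1.41 (SE 0.12, edgeR adjusted p = 8.63e-13) after TMM and 4.35 on library totals. Set against WT fraction 3, where DIS3 averaged 98.4 CPM, the D146N fraction 7 level differed by -0.13 (edgeR adjusted p = 0.554). A gene count cannot separate the endogenous transcript from the construct or the mutant from the wild-type sequence, so DIS3 does not check the labels here.

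The largest differences in makeup were in small structured RNAs. RPPH1 is the RNA of RNase P, which cleaves the 5′ leader from precursor tRNAs (chr14:20343071-20343411, hg38). It took 13.5%, 13.4% and 13.4% of all counts in WT and 0.56%, 0.586% and 0.594% in D146N. RMRP, the RNA of RNase MRP, which acts in ribosomal RNA maturation, took 3.16% ± 0.125 (SD, n = 3) in WT and 0.591% ± 0.00883 (SD, n = 3) in D146N. 7SK RNA, which holds the transcription elongation factor P-TEFb inactive, took 4.28% ± 0.0379 in WT and 2.05% ± 0.0454 in D146N (SD, n = 3 each). 7SL RNA, the scaffold of the signal recognition particle, took 25.2% ± 0.633 in WT and 29.3% ± 0.0696 in D146N (SD, n = 3 each). RPPH1, RMRP, 7SK and the 7SL gene RN7SL2 each stand in 2 nearly identical rows of that total. The doubled rows took more of the total in WT, so no direction is read for 7SL. These RNAs and the annotation rows that nearly duplicate them together took 71.4% to 73.1% of counts in WT and 41.7% to 42.2% in D146N.

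Other classes filled the difference. Protein-coding rows outside the classes named here took 5.38% ± 0.242 in WT and 30.8% ± 0.233 in D146N (SD, n = 3 each). Cytosolic ribosomal protein mRNAs were an exception among mRNAs, with 12.4% ± 0.529 in WT and 4.46% ± 0.0444 in D146N (SD, n = 3 each). Mitochondrially encoded mRNAs took 0.754% in WT and 3.79% in D146N, and mRNAs of very long proteins took 0.07% and 1.01%. Small Cajal body RNAs, which guide modification of spliceosomal RNAs, took 0.247% and 3.67%. Replication-dependent histone mRNAs took 1.61% and 3.35%, and nuclear-encoded subunits of oxidative phosphorylation 0.346% and 0.435%. On the deposited totals, in all 13 classes compared, the 3 libraries of one group lay entirely on 1 side of the other group. An exact two-sided permutation test gave p = 0.1 for each class, also after Benjamini-Hochberg adjustment over the 13 classes, which is the smallest p that 3 libraries against 3 allow. With the largest small RNAs taken out of the total, the histone log2 ratio went from 1.05 to 0 and the oxidative phosphorylation ratio from 0.33 to -0.72.

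**Figure D1:**
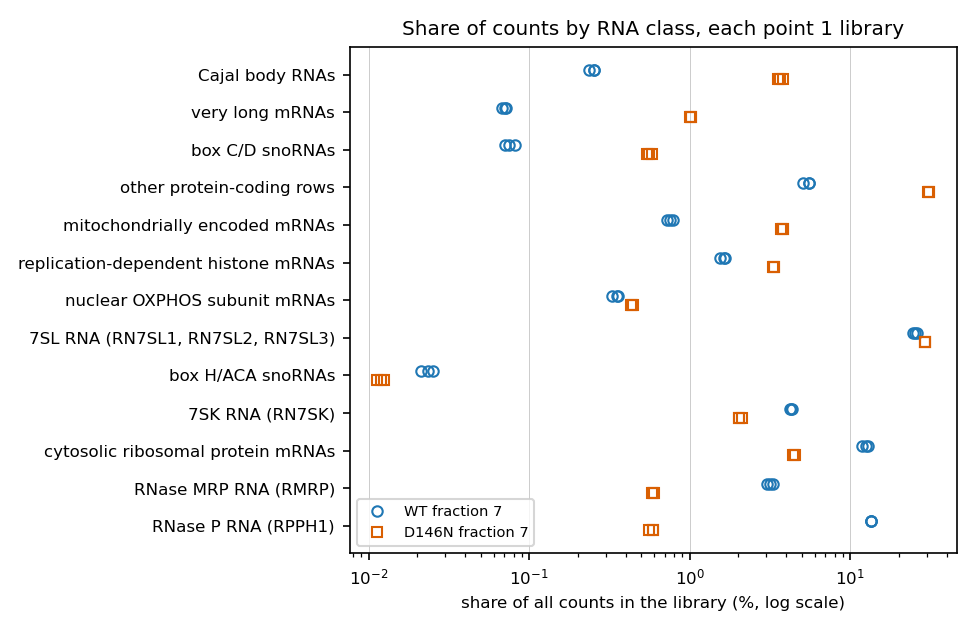
Share of all counts in each of the 6 libraries (x axis, percent, log scale) for 13 RNA classes (y axis), with circles for WT fraction 7 and squares for D146N fraction 7. RPPH1 lies near 13.4% in WT and near 0.58% in D146N, while Cajal body RNAs and very long mRNAs lie more than 10 times further right in D146N.

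Among the small RNAs named one by one, direction depended on the gene. Of 12 tested RNAs of RNase P, RNase MRP, the signal recognition particle, 7SK, the Y RNAs and the vault RNAs, 3 were called higher and 8 lower, and their median log2 difference was -2.63 after TMM against 0.16 for all genes, and 0.32 on library totals against 3.08. RPPH1 was lower by any scale, at 134918.6, 133806.4 and 133623.7 CPM in WT and 5600.6, 5859.3 and 5942.4 CPM in D146N (log2 difference -7.48, SE 0.18, edgeR adjusted p = 2.9e-28; -4.53 on library totals). RMRP differed by -5.37 (SE 0.14) and RN7SK by -4.01 (SE 0.16), and both stayed negative on library totals, at -2.42 and -1.06. The 7SL genes RN7SL1, RN7SL2 and RN7SL3 share nearly all of their sequence, so their reads cannot be assigned with certainty. They were lower after TMM (-2.77, -2.66 and -2.60) and had positive differences on library totals (0.18, 0.29 and 0.35). Those totals hold several small RNAs, RPPH1 among them, in 2 rows each, so these small positive values are not read as a rise.

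RNY1, a Y RNA that binds the Ro protein, had 0.161, 0.218 and 0.165 CPM in WT, from at most 7 counts a library, and 14.8, 14.5 and 16.3 CPM in D146N. Its log2 difference was 3.43 (SE 0.33, edgeR adjusted p = 4.75e-11), and the D146N libraries were all above the WT libraries. RNY3 was also higher, by 2.22 (SE 0.39), from at most 4 counts in a WT library, and RNY4 had at most 1 count in a WT library and 2.62, 2.66 and 2.60 CPM in D146N. The vault RNA VTRNA1-3 differed by 0.18 (edgeR adjusted p = 0.279), whereas without WT fraction 8 replicate 3 its adjusted p was 0.0451. VTRNA1-1 and VTRNA1-2 were lower after TMM (-2.87 and -1.90), and on library totals their differences were 0.07 and 1.03.

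The RNAs that guide modification of other RNAs were mostly lower after TMM. Of 85 tested box C/D small nucleolar RNAs (snoRNAs), which guide 2′-O-methylation, 1 was called higher and 64 lower (median -2.32 after TMM and 0.58 on library totals). Of 76 tested box H/ACA snoRNAs, which guide pseudouridylation, 0 were called higher and 60 lower (median -3.50 and -0.58). As a share of all counts, C/D snoRNAs took 0.0756% in WT and 0.558% in D146N, most of the latter being SNORD3A. H/ACA snoRNAs took 0.0231% and 0.0119%. Many tested C/D members lay under 1 CPM in both groups. SNORD3A, the U3 RNA, was the single C/D member called higher, at 447, 464 and 528 CPM in WT and 4877.7, 5054.3 and 5252.1 CPM in D146N (log2 difference 0.45, SE 0.10). Its copies SNORD3B-1 and SNORD3C are nearly alike in sequence, and reads between them are uncertain. SNORA73B, an H/ACA RNA, had 36.2, 43.5 and 46.2 CPM in WT and 11.8, 14.8 and 14.6 CPM in D146N, a difference of -4.55 (SE 0.12). It stayed lower on library totals, at -1.61.

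Cajal body RNAs went both ways. All 15 tested members were called, 4 higher (26.7%, against 32.4% of all genes) and 11 lower (73.3%, against 31.1%). The gain in the class's share came mostly from SCARNA2. SCARNA2 had 854, 923 and 894 CPM in WT and 31594.4, 32362.3 and 33970.4 CPM in D146N (log2 difference 2.25, SE 0.10, edgeR adjusted p = 2.7e-20). SCARNA9 had 35.8, 39.7 and 44.2 CPM in WT and 1292.9, 1525.0 and 1337.8 CPM in D146N (2.17, SE 0.09). SCARNA13 (0.42) and SCARNA17 (1.83), named after their values were seen, completed the 4 higher members. SCARNA10 was lower after TMM (-1.20) and higher on library totals (1.75).

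SCARNA16 had the lowest log2 difference of the genes ranked. It lies at chr17:77089307-77089493 inside SNHG20 (chr17:77088643-77094986, both hg38), a noncoding transcript. SCARNA16 had 117, 118 and 123 CPM in WT and 0.521, 0.597 and 0.755 CPM in D146N, a difference of -10.49 (SE 0.29, edgeR adjusted p = 2.39e-17) after TMM and -7.56 on library totals. SNHG20 itself had 131, 134 and 137 CPM in WT and 7.78, 9.48 and 9.83 CPM in D146N (-6.84, SE 0.20). The row for the microRNA MIR6516 (-10.48) is no separate evidence, since its hairpin overlaps SCARNA16 and had almost the same counts. To which of these 3 overlapping rows a read belongs was not tested.

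The microRNA hairpins at both ends of the ranking are printed because each is counted as a gene of its own, and the first of them overlaps SCARNA16. Sequences are from RefSeq (GRCh38.p14), 5′ to 3′, with bases 2 to 8 of each mature microRNA, the seed, in capitals. The first lies at chr17:77089417-77089497 on the plus strand, and the second at chr17:8186945-8187004 on the plus strand.
MIR6516: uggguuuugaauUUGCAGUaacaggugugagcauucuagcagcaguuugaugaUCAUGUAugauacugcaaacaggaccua
MIR4521: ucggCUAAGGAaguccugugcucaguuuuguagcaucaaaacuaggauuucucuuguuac
MIR4521 had 0.193, 0.218 and 0.362 CPM in WT, from at most 11 counts, and 17.5, 14.8 and 16.6 CPM in D146N (3.04, SE 0.26, edgeR adjusted p = 2.51e-12). Counts on a hairpin row cannot show whether the mature microRNA, its precursor or the surrounding transcript was read.

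Spliceosomal small nuclear RNA genes were lower for the most part, with 3 called higher and 20 lower of 24 tested (median -3.25 after TMM and -0.30 on library totals). The 3 higher members were RNU6ATAC (3.51), RNU6-7 (1.76) and RNU6-9 (1.73), of which RNU6-9 had at most 2 counts in a WT library and was not called with limma voom (adjusted p = 0.138). RNU6ATAC had at most 6.5 counts in a WT library. These genes have many near copies, so their single values are uncertain. Transcripts that host snoRNAs in their introns were called lower in 25 of 26 tested and higher in 0 (median -2.99 after TMM and -0.04 on library totals). GAS5, the host of several C/D snoRNAs, had 1189.5, 1325.1 and 1309.0 CPM in WT and 587, 581 and 585 CPM in D146N, a difference of -4.07 (SE 0.10). SNHG5 differed by -5.22 (SE 0.16) and SNHG19 by -5.42 (SE 0.18). SNHG29 was lower after TMM (-2.42) and had a positive difference on library totals (0.53, edgeR adjusted p = 0.226).

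Long noncoding RNAs chosen by name were split evenly, with 6 higher and 6 lower of 15 tested. That is 40% each way, against 32.4% higher and 31.1% lower of all genes. MALAT1, a nuclear RNA of speckles, had 81.0, 86.8 and 89.5 CPM in WT and 1915.6, 2156.2 and 2055.1 CPM in D146N (log2 difference 1.63, SE 0.09). TERC, the RNA template of telomerase, had 703, 761 and 734 CPM in WT and 263, 297 and 285 CPM in D146N (-4.33, SE 0.14), and stayed lower on library totals (-1.38). NEAT1, the scaffold RNA of paraspeckles, was higher by 1.55, and CRNDE was lower by 5.19 on the log2 scale, both named after their values were seen.

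Cytosolic ribosomal protein mRNAs were lower in nearly all members. These mRNAs encode the proteins of the large and small ribosomal subunits, are short and begin with a terminal oligopyrimidine tract (TOP), a run of C and T at the transcript start through which their translation is controlled together. Of 50 large-subunit mRNAs, 47 were called lower and 2 higher (median -4.21 after TMM and -1.26 on library totals). Of 34 small-subunit mRNAs, 33 were called lower and 0 higher (median -4.29 and -1.34). On library totals 41 and 30 of them were still called lower, against 5.41% of all genes. Many ribosomal protein genes have processed pseudogenes with nearly the same sequence, so how reads were shared between them is uncertain.

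RPLP1, a protein of the ribosomal stalk, had 9113.5, 9837.6 and 9986.5 CPM in WT and 1113.3, 1052.5 and 1082.0 CPM in D146N. Its log2 difference was -6.10 (SE 0.17, edgeR adjusted p = 1.93e-26) after TMM and -3.16 on library totals. RPL12, at the base of the stalk, had 5404.5, 5760.2 and 5704.5 CPM in WT and 846, 831 and 853 CPM in D146N (-5.68, SE 0.13). RPS12 (-5.57, SE 0.16) and RPS14 (-5.43, SE 0.16), both of the small subunit, were also among the 12 genes ranked lowest. In all 4 genes the WT libraries lay above the D146N libraries on both scales.

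The members called against the group were RPL4 and RPL3, which encode the longest proteins among the core large-subunit set. RPL4 had 38.9, 40.1 and 45.0 CPM in WT and 840, 787 and 791 CPM in D146N, a difference of 1.34 (SE 0.10, edgeR adjusted p = 1.87e-14). RPL3 had 62.4, 65.9 and 66.5 CPM in WT and 829, 853 and 805 CPM in D146N (0.73, SE 0.09, edgeR adjusted p = 2.75e-08). RPL5 and RACK1, the members that did not pass the test, are named after their values were seen. Protein lengths were not analysed here.

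Other TOP mRNAs did not follow the ribosomal proteins. Of 22 mRNAs of translation factors and related proteins, 13 were called higher and 5 lower (median 0.55 after TMM and 3.50 on library totals). These are 59.1% and 22.7%, against 32.4% higher and 31.1% lower of all genes. TPT1, a small calcium-binding protein, had 1087.2, 1220.5 and 1210.0 CPM in WT and 483, 482 and 508 CPM in D146N (-4.20, SE 0.14, edgeR adjusted p = 1.77e-24). EEF1A1, the factor that brings aminoacyl-tRNA to the ribosome, had 91.3, 108 and 103 CPM in WT and 1934.8, 1936.8 and 2023.5 CPM in D146N (1.34, SE 0.09). EEF2, the translocation factor, had 35.4, 40.7 and 36.9 CPM in WT and 990, 955 and 923 CPM in D146N (1.72, SE 0.09). The other members called lower, named after their values were seen, were BTF3 (-3.66), NACA (-3.23), EEF1B2 (-2.99) and EEF1D (-0.85), the first pair being subunits of the complex that meets nascent chains at the ribosome exit. EEF1D was higher on library totals (2.1).

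**Figure D2:**
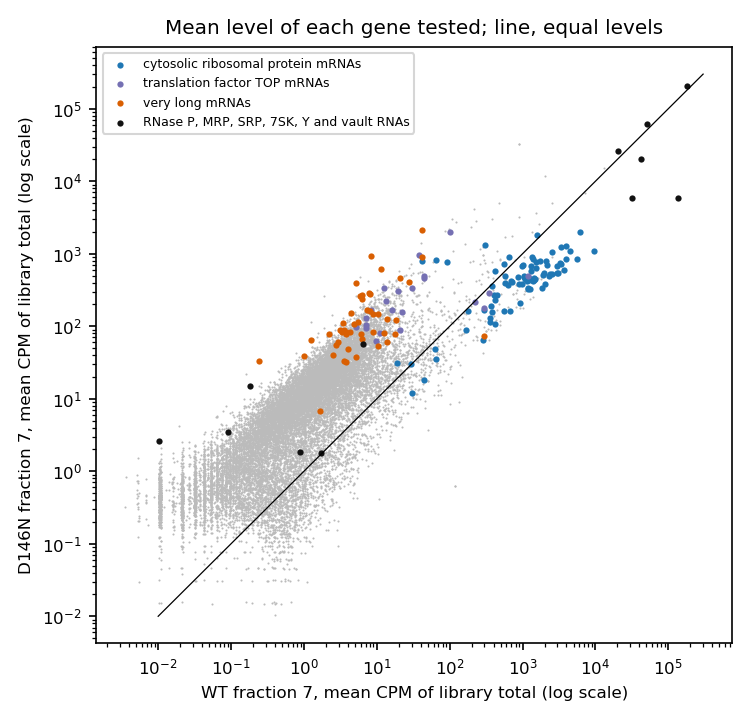
Mean CPM of the library total in D146N fraction 7 (y axis, log scale) against WT fraction 7 (x axis, log scale) for each tested gene with a count in both groups, in grey, with 4 gene groups in colour and a line at equal levels. Most genes lie above the line, whereas most ribosomal protein mRNAs and RPPH1 lie below it.

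The start sites of these genes are shown because ribosomal protein and translation factor mRNAs share the TOP class while lying on opposite sides. Each window runs from 10 bases before the RefSeq transcript start to 20 bases from it, in GRCh38.p14, 5′ to 3′ on the transcribed strand, with CTTT in capitals where it occurs. RefSeq's start may not be the start used in these cells.
RPLP1 (chr15:69452808-69452837, plus strand): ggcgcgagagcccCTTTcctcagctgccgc
RPS12 (chr6:132814559-132814588, plus strand): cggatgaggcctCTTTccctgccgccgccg
TPT1 (chr13:45341164-45341193, minus strand): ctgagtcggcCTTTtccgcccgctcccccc
RPL4 (chr15:66504836-66504865, minus strand): cgggagtggtaagcacttcCTTTtcctgtg
EEF1A1 (chr6:73521013-73521042, minus strand): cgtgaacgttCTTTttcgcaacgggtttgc
RPL3 (chr22:39319604-39319633, minus strand): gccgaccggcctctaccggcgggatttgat
EEF2 (chr19:3985444-3985473, minus strand): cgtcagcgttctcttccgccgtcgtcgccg
DIAPH1 (chr5:141618981-141619010, minus strand): ggcggctggctaaagagcgactgggcggcg
The letters CTTT, searched on the transcribed strand only, stood in the window of 64.7% of 68 cytosolic ribosomal protein genes and 85.7% of 14 translation factor TOP genes with a window. They stood in 45.5% of 22 snoRNA host genes, in 4.76% of 42 very long mRNA genes and in 12.1% of all 27305 windows in the table. Among ribosomal protein genes the median log2 difference was -4.50 with the letters and -4.06 without. Among the 14 translation factor genes it was 0.61 and -0.63. The latter value rests on the few genes outside the 85.7%, EEF2 (1.72) among them, and is not read as a difference. Among tested protein-coding genes other than the cytosolic ribosomal protein genes it was 0.35 with the letters and 0.34 without. The letters CTTT were thus present both in genes that were lower, such as RPLP1, and in genes that were higher, such as EEF1A1 and RPL4. They were absent from the windows of RPL3 and EEF2, which were also higher. CTTT is not the TOP tract itself, and a window without it can still hold a run of C and T at the start, as that of EEF2 does.

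mRNAs for mitochondrial proteins are encoded in the nucleus or in mitochondrial DNA. Of 76 nuclear-encoded subunits of oxidative phosphorylation, 63 were called lower and 10 higher (median -2.43 after TMM), while on library totals the median was 0.52. Of 77 mitochondrial ribosomal protein mRNAs, 51 were called lower and 13 higher (median -1.38, and 1.57 on library totals). ATP5F1E, the smallest subunit of the ATP synthase catalytic part, had 339, 361 and 366 CPM in WT and 109, 114 and 111 CPM in D146N (-4.62, SE 0.18), and stayed lower on library totals (-1.67). COX7C, of cytochrome c oxidase, differed by -3.52 (SE 0.16) and -0.58 on library totals. MRPL33 differed by -4.08 (SE 0.17), whereas MRPL37 was higher by 0.83 (SE 0.14).

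Of the 13 mRNAs encoded in mitochondrial DNA, 7 were called higher and 4 lower (median 0.64 after TMM and 3.59 on library totals). These are 53.8% and 30.8%, against 32.4% higher and 31.1% lower of all genes, so the lower share was near that of all genes. On library totals all 13 were called higher, as were 83.6% of all genes. MT-CO1, a core subunit of cytochrome c oxidase, had 1926.0, 2057.0 and 2076.5 CPM in WT and 11968.3, 11711.4 and 11918.1 CPM in D146N. It was lower after TMM (-0.39, SE 0.09, edgeR adjusted p = 0.000419) and higher on library totals (2.55), and without D146N fraction 7 replicate 2 its adjusted p after TMM was 0.0557. MT-CO2 (-1.68) and MT-CO3 (-1.98) were likewise lower after TMM and higher on library totals (1.27 and 0.97). The mitochondrial tRNA row MT-TW had 10.5, 11.9 and 10 CPM in WT and 0.345, 0.259 and 0.65 CPM in D146N (-7.57, SE 0.26), lower on both scales.

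At the other end of the ranking AHNAK2, DIAPH1 and AHNAK came from the list of very long mRNAs. Of the 48 mRNAs on that list, 39 were called higher and 7 lower, or 81.2% higher against 32.4% of all genes (median 1.44 after TMM and 4.39 on library totals). AHNAK2, a giant scaffold protein (chr14:104937253-104978374, hg38), had 0.225, 0.373 and 0.132 CPM in WT, from 4 to 12 counts, and 39.0, 33.1 and 27.6 CPM in D146N. Its log2 difference was 4.13 (SE 0.24, edgeR adjusted p = 4.67e-17). DIAPH1, a formin that assembles actin filaments, had 8.12, 8.05 and 8.80 CPM in WT and 957, 944 and 906 CPM in D146N (3.87, SE 0.11, edgeR adjusted p = 4.52e-26). AHNAK, the related scaffold, had 4.90, 5.23 and 5.56 CPM in WT and 397, 386 and 388 CPM in D146N (3.28, SE 0.09).

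AKAP12, an anchor for protein kinase A, had 40.1, 41.7 and 42.7 CPM in WT and 2148.4, 2108.5 and 2139.5 CPM in D146N (2.74, SE 0.14). PRKDC, the DNA-dependent protein kinase, differed by 1.47 (SE 0.10). NBEAL1, named after its values were seen, was the exception of greatest size, at 295 CPM in WT and 73.5 CPM in D146N on average (-4.95). The other 6 members called lower, BDP1, KMT2C, LRBA, DIAPH3, ATM and BIRC6, lay between -0.95 and -0.20 and were all higher on library totals.

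The other genes ranked highest were of varied function. SPECC1, a cytoskeletal protein, had 5.28, 6.41 and 6.03 CPM in WT and 478, 498 and 455 CPM in D146N (3.39, SE 0.09). ANAPC2, the cullin subunit of the anaphase-promoting complex, had 1.03, 1.15 and 1.60 CPM in WT and 110, 117 and 122 CPM in D146N (3.59, SE 0.13). PRKCA, protein kinase C alpha, differed by 2.94 (SE 0.11) and CTNNB1, beta-catenin, by 2.83 (SE 0.08). TNKS1BP1 (2.84), CAPN15 (2.80) and C1orf226 (3.00) completed the 12. C1orf226 rested on at most 9 counts in a WT library. At the lower end, the antisense transcript ZNF232-AS1 (-5.53, SE 0.26) and the Notch ligand DLL3 (-5.46, SE 0.25) stood among the ribosomal protein and host transcripts. Reads of ZNF232-AS1 cannot be told apart from those of overlapping genes unless strand was used in counting, which is not given in the sources used here.

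**Figure D3:**
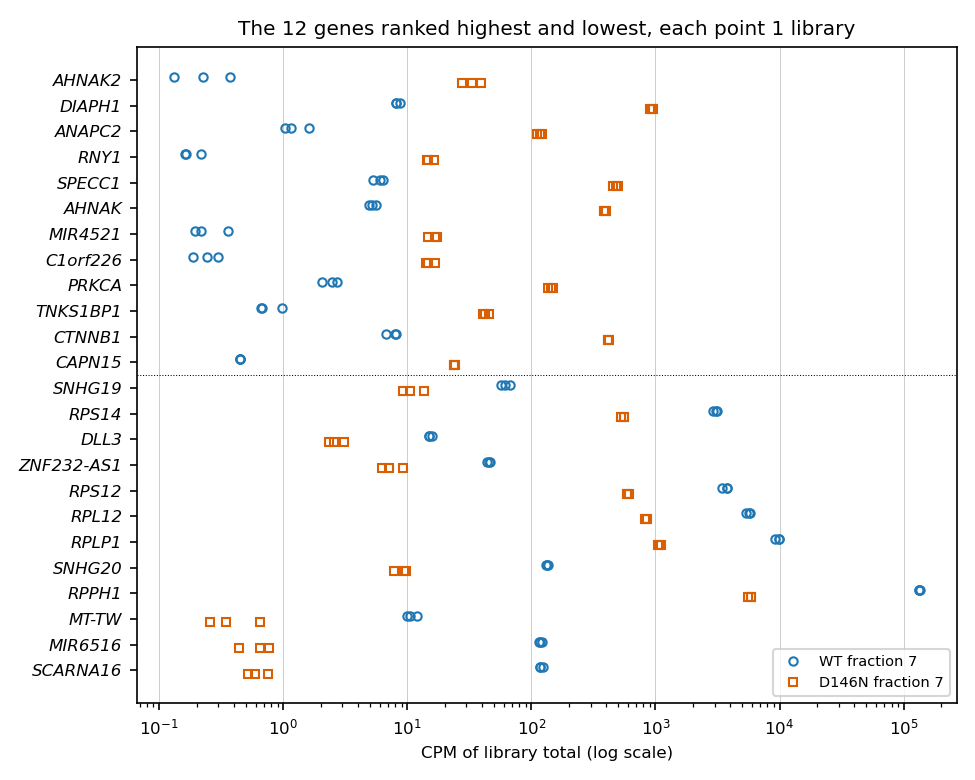
CPM of the library total (x axis, log scale) in each of the 6 libraries for the 12 genes ranked highest and the 12 ranked lowest by log2 difference (y axis), with circles for WT fraction 7 and squares for D146N fraction 7. The groups do not overlap in any of the 24 genes, which the ranking required.

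Length of the gene on the chromosome did not order the differences. Among 13350 tested protein-coding genes with a RefSeq span, Spearman's rho between span and log2 difference was -0.01 across genes, given as a description. The median was -0.26 for genes spanning under 5 kb and 0.51 for those of 10 to 20 kb, and it fell to 0.10 for those of 100 kb and over. Of the genes under 5 kb, 25% were called higher and 41.0% lower, and without the ribosomal protein genes 25.8% and 38.9%. Gene span includes introns and so says little of mRNA or protein length. By kind of gene, 5436 of 13350 protein-coding genes were called higher and 3212 lower (median 0.35), against 84 and 834 of 1398 long noncoding RNA genes (median -1.56). On library totals these medians were 3.28 and 1.36.

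mRNAs of the cell cycle and of chromatin were mixed. All of the 53 called among 59 tested replication-dependent histone mRNAs were lower after TMM (median -2.00), but on library totals their median was 0.92 and 50 were called higher. These mRNAs end in a stem-loop rather than a poly(A) tail and have many near copies. H3C15 had 1645.6, 1722.0 and 1736.8 CPM in WT and 2559.5, 2659.3 and 2539.6 CPM in D146N, a difference of -2.34 (SE 0.14) after TMM and 0.60 on library totals. Of 36 DNA replication mRNAs, 25 were called higher and 3 lower (median 0.60). The shares were 69.4% and 8.33%, against 32.4% higher and 31.1% lower of all genes. MCM7, of the replicative helicase, had 5.32, 6.82 and 6.79 CPM in WT and 186, 168 and 170 CPM in D146N (1.85, SE 0.09). RPA3 (-2.77), GINS1 (-0.72) and RFC2 (-0.37) were lower after TMM, with library-total differences of 0.18, 2.23 and 2.58, and RFC2 was not called when any 1 D146N library was left out (adjusted p = 0.0765 to 0.0915).

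Of 34 mRNAs of the G2 and M phases, 20 were called higher and 9 lower (median 0.43). The shares were 58.8% higher and 26.5% lower, and the lower share was under the 31.1% of all genes. CENPF, a large kinetochore protein, had 5.58, 5.90 and 6.29 CPM in WT and 242, 263 and 275 CPM in D146N (2.51, SE 0.10). MKI67, the proliferation marker, differed by 1.85 (SE 0.08) and TOP2A by 1.12 (SE 0.10). Within the anaphase-promoting complex the 15 subunits were divided, 6 higher and 6 lower. That is 40% each way, against 32.4% higher and 31.1% lower of all genes. ANAPC2 was higher by 3.59, and ANAPC16, a small subunit, was lower after TMM (-2.81, SE 0.09) with a library-total difference of 0.14.

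Glycolytic and chaperone mRNAs were mostly higher. Of 19 glycolytic enzyme mRNAs, 17 were called higher and 0 lower (median 1.21 after TMM and 4.15 on library totals). ENO1, enolase, had 16.0, 16.0 and 16.3 CPM in WT and 353, 344 and 365 CPM in D146N (1.51, SE 0.08). GAPDH had 58.8, 59.2 and 57.9 CPM in WT and 782, 785 and 759 CPM in D146N. GAPDH was not called (0.78, SE 0.59, edgeR adjusted p = 0.264), whereas without WT fraction 8 replicate 3 the difference was 0.80 with adjusted p = 3.32e-25. Of 25 chaperones of the endoplasmic reticulum, 19 were higher (76.0%) and 4 lower (16.0%), against 32.4% and 31.1% of all genes (median 0.89). HSPA5, the chaperone BiP, was higher by 1.70 (SE 0.08). Of 23 cytosolic and mitochondrial chaperones, 18 (78.3%) were higher (median 0.90), led by level with HSP90AA1 (1.23) and HSP90AB1 (2.03). The co-chaperonin HSPE1 (-2.81) and the small heat-shock protein HSPB1 (-4.07) were the 2 lower members, and HSPE1 had a library-total difference of 0.14.

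**Figure D4:**
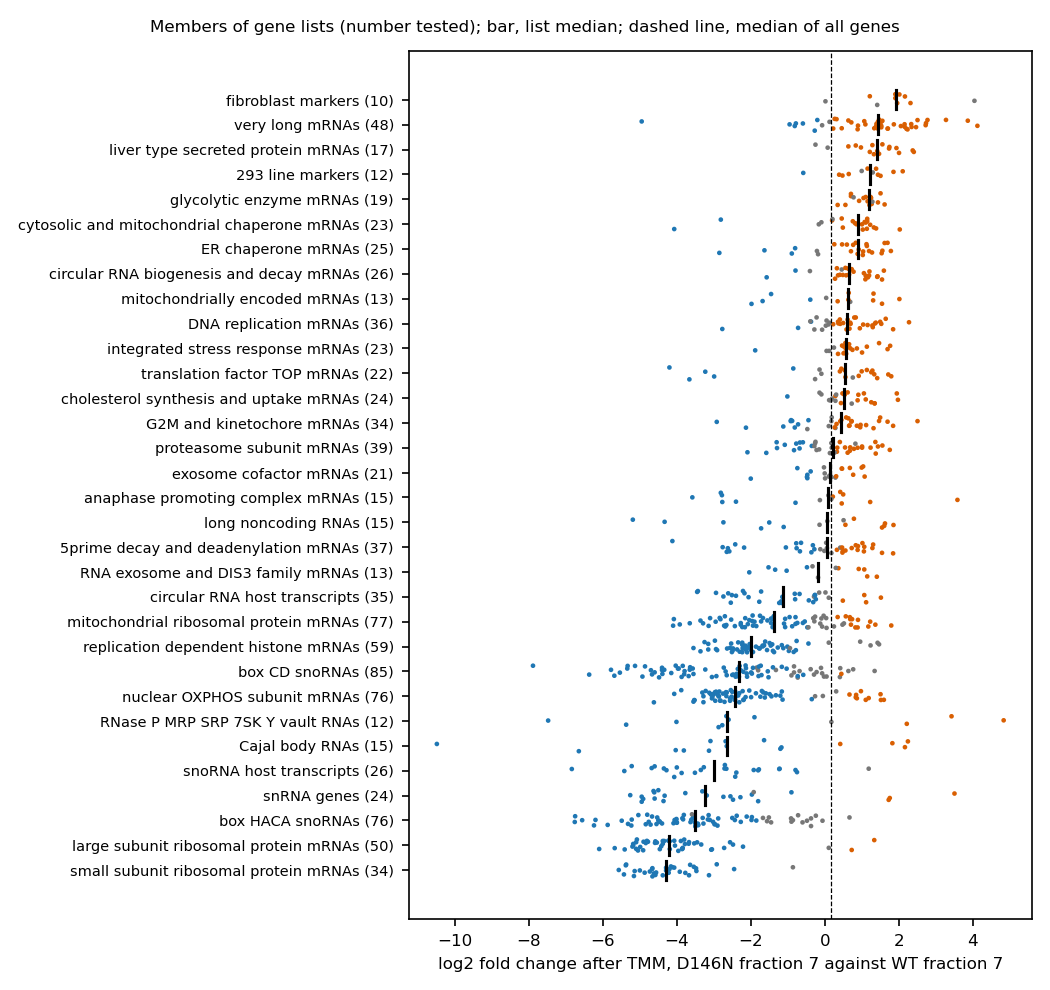
Log2 difference after TMM (x axis) of each tested member of gene lists with at least 5 tested members (y axis, number tested in brackets), in orange where called higher, blue where called lower and grey where not called. Bars mark list medians, which run from -4.29 for small-subunit ribosomal protein mRNAs to 1.94 for fibroblast markers, and the dashed line marks the median of all genes at 0.16.

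Because DIS3 is an exosome subunit, the mRNAs of RNA decay factors were examined as a group. Of 13 mRNAs of the exosome and the DIS3 family, 5 were called higher and 5 lower (median -0.18 after TMM, and 2.77 on library totals). That is 38.5% each way, against 32.4% higher and 31.1% lower of all genes. The exosome's second nuclease, EXOSC10, had 4.25, 3.06 and 3.66 CPM in WT and 38.3, 37.1 and 33.9 CPM in D146N (0.37, SE 0.12, edgeR adjusted p = 0.00926), and the call was lost without WT fraction 7 replicate 2 (adjusted p = 0.101). Ring subunits went both ways, with EXOSC9 (1.07) and EXOSC6 (1.15) higher and EXOSC8 (-1.34) and EXOSC4 (-1.03) lower. The cap subunits EXOSC2 (-0.48) and EXOSC1 (-2.04) were lower, and the cap subunit EXOSC3 was not called (-0.18, edgeR adjusted p = 0.365). Nor were the ring subunits EXOSC7 (0.30, edgeR adjusted p = 0.204) and EXOSC5 (-0.33, edgeR adjusted p = 0.415). DIS3L, the cytoplasmic relative of DIS3, was higher (0.92, SE 0.14), and DIS3L2, which degrades uridylated RNA without the exosome, was lower (-1.52, SE 0.19). On library totals all 13 were higher, EXOSC8, EXOSC2, EXOSC4, EXOSC1 and DIS3L2 included.

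Exosome cofactors had 8 higher and 6 lower of 21 (median 0.14), and factors of deadenylation and 5′ decay 16 higher and 15 lower of 37 (median 0.06, and -0.02 with median-of-ratios size factors). These counts are 38.1% and 28.6% of cofactors and 43.2% and 40.5% of decay factors. Among all genes, 32.4% were higher and 31.1% lower. SKIC3, of the cytoplasmic Ski complex that feeds RNA to the exosome, was higher by 0.46 (SE 0.12). MTREX, the nuclear helicase that does the same, differed by 0.29 (edgeR adjusted p = 0.0772). MTREX was called without WT fraction 8 replicate 3 (0.31, adjusted p = 0.00749) and without any 1 of the D146N fraction 7 libraries (adjusted p = 0.00394 to 0.0194). CNOT1, the scaffold of the deadenylase complex, was higher by 0.90 (SE 0.08).

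The series title concerns circular RNA, which gene counts do not separate from linear RNA of the same gene. Of 26 mRNAs of proteins known in circular RNA formation or decay, 22 were called higher and 2 lower (median 0.66), with the splicing factor SFPQ at 1.42 (SE 0.08). RIDA (-1.57) and DDX39A (-0.79) were lower after TMM and higher on library totals (1.37 and 2.16). Of 35 tested transcripts that are known hosts of circular RNAs, 27 were called lower and 4 higher (median -1.14 after TMM and 1.80 on library totals, against 0.16 and 3.08 for all genes). XPO1 had 47.7, 49.4 and 52.8 CPM in WT and 163, 178 and 176 CPM in D146N, a difference of -1.16 (SE 0.10) after TMM and 1.79 on library totals. MAN1A2 differed by -1.18 (SE 0.07) and 1.77. The 4 higher hosts, named after their values were seen, were ZNF609 (1.52), FOXO3 (1.12), TNFRSF21 (1.07) and EIF3J (0.49).

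Markers of the cell line were checked beside those of other cell types. All 12 markers of 293 cells were tested, 9 being called higher and 1, DACH1, lower after TMM (-0.58, and 2.37 on library totals). VIM, vimentin, had 16.4, 16.8 and 18.6 CPM in WT and 203, 213 and 211 CPM in D146N, while NEFL, NEFM and PAX2 averaged under 2 CPM in both groups. Transcripts of proteins secreted by liver were detected as well, with 17 of 20 tested, 15 called higher and 0 lower (median 1.42). ALB, serum albumin, had 6.73, 7.69 and 7.51 CPM in WT and 133, 137 and 142 CPM in D146N (1.29, SE 0.24, edgeR adjusted p = 0.000172). APOB averaged 16.0 and 288 CPM. The list's summed share was 0.00415% to 0.00475% of counts in WT and 0.0816% to 0.0835% in D146N.

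These liver transcripts are not defining markers of 293T, and their part in the other results was not tested. Of the fibroblast markers, 10 of 13 were tested and 7 called higher (median 1.94), their summed share being 0.000586% to 0.000608% in WT and 0.0159% to 0.0164% in D146N. Of 10 erythroid markers, 7 were at 0 in all 6 libraries, and of 10 leukocyte markers 2 were tested and 0 called. Summed leukocyte shares were 2.04e-05% to 2.49e-05% in WT and 0.000104% to 0.000233% in D146N. Marker levels in these libraries also depend on library makeup and on where each mRNA lay in the gradient. These, the number of cells of a type and the RNA per cell cannot be told apart here.

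Fraction 8, the neighbouring fraction with no library in common, showed nearly the same difference. Both comparisons come from the same fit, and their libraries may share cultures and gradients, so their likeness is not independent replication. There 12314 genes (65.1%) were called, 6154 higher (32.5%) and 6160 lower (32.6%), and 11748 were called without WT fraction 8 replicate 3. Of the genes called in fraction 7, 89.1% were also called in fraction 8, and of those called in fraction 8, 86.8% were called in fraction 7. Of the 10687 called in both, 10686 had the same direction and 1 the opposite one. Pearson's r of the log2 differences was 0.881 across 18907 genes, which are not independent replicates, and the median absolute difference was 0.26.

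Of 147 named genes, 3 differed in log2 difference by over 1 between fractions 7 and 8, and 3 turned sign. RPPH1 differed by -7.12 in fraction 8, SCARNA16 by -9.94, RPLP1 by -5.85, DIAPH1 by 4.12 and DIS3 by 1.33. The test of the difference between the fraction 7 and fraction 8 contrasts called 0 genes in edgeR, with 1210 at an unadjusted p under 0.05 and a smallest adjusted p of 0.256. DESeq2 called 2 genes and limma voom 0. The 3 wider gaps were GAPDH, at 0.78 in fraction 7 and -1.36 in fraction 8, CAPN15, at 2.80 and 1.67, and RNU6ATAC, at 3.51 and 2.41. Without WT fraction 8 replicate 3 the fraction 8 value of GAPDH was 0.76. PSMA4 (0.14 and -0.22) and EXOSC7 (0.30 and -0.17) also turned sign, and without that library their fraction 8 values were 0.05 and 0.22. The median of mitochondrially encoded mRNAs was 0.64 in fraction 7 and -0.04 in fraction 8. Without WT fraction 8 replicate 3, fraction 8 values went from -2.21 to -1.80 for MT-CO2, -2.39 to -2.11 for MT-CO3 and -0.49 to -0.42 for MT-CO1. The fraction 8 median without that library is not given here.

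Set against the WT libraries of fraction 3, at the other end of the labels, the same D146N fraction 7 libraries differed far less. There 1380 genes (7.3%) were called, 381 higher (2.02%) and 999 lower (5.28%), of which 131 (0.693%) were at least 2-fold. Both comparisons share the D146N fraction 7 libraries, so they are not independent. Without WT fraction 8 replicate 3, the number called was 2919, and without D146N fraction 7 replicate 1 it was 893. RPPH1 took 0.572% of counts in WT fraction 3 and 14.1% in D146N fraction 3, against 0.58% in D146N fraction 7 and 13.4% in WT fraction 7.

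In the WT fraction 3 comparison 39 of the 147 named genes were called. RPL4 differed by -0.12, DIAPH1 by 0.22, SCARNA16 by -0.27 and MT-CO1 by -0.08, none of these 4 being called. RPLP1 was called at -0.46 (edgeR adjusted p = 0.035) and RMRP at -0.47 (edgeR adjusted p = 0.00652). Others called included CENPF at -1.24 (edgeR adjusted p = 1.48e-11), PRKDC at -0.83 (edgeR adjusted p = 2.68e-07), MIR4521 at -1.21 (edgeR adjusted p = 4.13e-07) and TNKS1BP1 at 0.80 (edgeR adjusted p = 1.45e-05). Very long mRNAs had a median of -0.49 in that comparison and histone mRNAs one of 0.39. Whether the genotypes differ at matched positions of the gradient cannot be told from the labels.

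**Figure D5:**
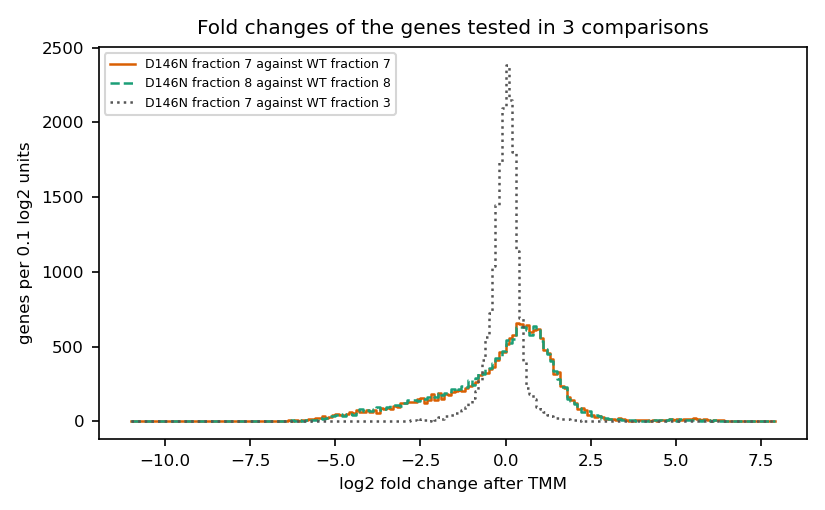
Number of tested genes per 0.1 log2 units (y axis) by log2 difference after TMM (x axis) for D146N fraction 7 against WT fraction 7, D146N fraction 8 against WT fraction 8 and D146N fraction 7 against WT fraction 3. The first and second curves are broad, with 63.5% and 65.1% of genes called, and the curve against WT fraction 3 is narrow, with 7.3% called.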

How the data were processed

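The members compared and the gene lists were chosen with earlier results of these data known. Per the labels' protocols, cytoplasmic RNA of gradient fractions was extracted with TRIzol, depleted of ribosomal RNA and made into libraries with KAPA kits. The submitters' processing notes name HISAT2 2.1.0, Bowtie2 2.3.5, SAMtools, featureCounts 1.5.1 and the build hg38, without roles. The table the authors deposited holds estimated counts for 61853 gene rows, of which 73.3% of nonzero values are whole within 0.005; how fractions of a count arose and whether strand was used are not given in the sources used here. Some small RNAs stand in 2 nearly identical rows, both of which enter the library total.

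Counts were rounded to whole numbers. In edgeR 4.0.16 (R 4.3.3), filterByExpr, TMM factors and a quasi-likelihood fit (robust option) with 1 mean for each of 8 groups, over all 24 libraries, were used, with Benjamini-Hochberg adjustment over 18907 genes and a threshold of 0.05. The biological coefficient of variation was 13.8%. SE is the log2 difference divided by the root of F. Labels call the libraries biological replicate sets but do not say how cultures were separated. On simulated counts, the fit called 22.4% of genes changed 1.5-fold, 64.2% of those changed 2-fold and 98.5% of those changed 4-fold, among 18375 genes. The simulation changed 67, 67 and 66 genes and left the others equal in both groups. In the data 63.5% of genes were called, so these rates need not hold for this comparison. Alternatives used DESeq2 1.42.0, limma 3.58.1 and others given at the end.

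Named genes were DIS3, the 12 largest differences each way (adjusted p under 0.05, mean of at least 10 CPM in the higher group, groups not overlapping, same direction on both scales, no pseudogenes), the 3 most abundant members of each list, up to 3 called against it, and any RNA decay or RNase P list member. Genes outside this rule were named after their values were seen, and some that it selects are not reported here. RNA class shares were compared with an exact permutation test. Sequences came from RefSeq tables of GRCh38.p14. Protein lengths were not used here; gene span took their place.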

Additional observations from a re-analysis of the deposited data

How the results depend on the processing

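The number of genes called in fraction 7 (12000) ranged from 11155 to 12135 when 1 of the 6 libraries was left out, and was 12568 without WT fraction 8 replicate 3, an alternative added after seeing the data. Deviations of same-numbered libraries of the genotypes correlated at 0.10, -0.01 and -0.01 over 3963 genes, and those of differently numbered ones at -0.06 to 0.07. With 3 libraries per group these values cannot decide whether same-numbered libraries share a culture or gradient. With the replicate block, 11950 genes were called. On library totals, 15799 genes were called higher and 1022 lower. Under the difference between fractions 7 and 8, DESeq2 called 2 genes and no filter 24, and leaving out libraries gave 0 to 1. Against WT fraction 3, limma voom called 2551, omission of WT fraction 8 replicate 3 gave 2919, and leaving out libraries gave 893 to 1293. Without the largest small RNAs in the total, the log2 share ratio was 0 for histone mRNAs and -0.72 for oxidative phosphorylation mRNAs, since that total is smaller mainly in WT.

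By construction, library totals move every difference up. They also hold some small RNAs in 2 rows each, so the small values for RN7SL1, RN7SL2 and RN7SL3 are not read as a rise. On that scale these named genes, which had negative differences after TMM (EXOSC3 and EXOSC5 without passing the test), had positive log2 differences: MT-CO1 2.55, MT-CO2 1.27, MT-CO3 0.97, MRPL51 0.78, RN7SL1 0.18, RN7SL2 0.29, RN7SL3 0.35, VTRNA1-1 0.07, VTRNA1-2 1.03, SNORD3B-1 1.16, SNORD3C 2.22, SCARNA10 1.75, RNU2-2P 0.21, RNU1-4 0.46, SNHG29 0.53, H3C15 0.60, H4C14 1.82, H2AC19 0.58, RPA3 0.18, RFC2 2.58, GINS1 2.23, ANAPC16 0.14, PSMA5 1.87, PSMB4 1.65, HSPE1 0.14, DDIT3 1.07, EXOSC8 1.60, EXOSC2 2.47, DIS3L2 1.42, EXOSC4 1.92, EXOSC3 2.77, EXOSC1 0.91, EXOSC5 2.61, RIDA 1.37, DDX39A 2.16, XPO1 1.79, MAN1A2 1.77, POLR2A 2.68 and DACH1 2.37. List medians that changed sign there were 0.52 for oxidative phosphorylation, 1.57 for mitochondrial ribosomal proteins, 0.32 for the RNase P list, 0.58 for C/D snoRNAs, 0.30 for Cajal body RNAs, 0.92 for histones, 2.77 for the exosome and 1.80 for circular RNA hosts. With median-of-ratios size factors the medians were -0.01 for long noncoding RNAs and -0.02 for 5′ decay. Calls near the threshold moved with filter or library, as for MCM4 and ANAPC1, which were not called with at least 1 CPM in 3 libraries (adjusted p = 0.44 and 0.568). POLR2A (-0.26 after TMM) was not called when any 1 D146N fraction 7 library was left out (edgeR adjusted p = 0.0833, 0.376 and 0.553). The planned classes of protein length were not run. WT values resting on 12 or fewer counts limit the Y RNA, AHNAK2, MIR4521, C1orf226, RNU6ATAC and RNU6-9 differences. In D146N the lowest library had 5.5 counts for MT-TW, 9.67 for MIR6516 and 11.33 for SCARNA16, which limits these differences likewise.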

Other observations

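Further gene groups were mostly higher in D146N fraction 7 or divided. Of 24 mRNAs of cholesterol synthesis and uptake, 15 were called higher and 1 lower (median 0.53 after TMM and 3.47 on library totals). FDPS, farnesyl diphosphate synthase, had 3.26, 3.08 and 3.63 CPM in WT and 55.3, 57.0 and 53.2 CPM in D146N (log2 difference 1.11, SE 0.13). SREBF2, a transcription factor of this pathway, was higher by 1.35 (SE 0.12).

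Of 23 mRNAs of the integrated stress response, 19 were called higher and 1 lower (median 0.58). ATF4, its central transcription factor, had 21.9, 21.4 and 21.9 CPM in WT and 272, 259 and 278 CPM in D146N (0.69, SE 0.10), and PHGDH, of serine synthesis, was higher by 1.70 (SE 0.08). DDIT3, also known as CHOP, was lower after TMM (-1.88, SE 0.13) and higher on library totals (1.07).

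Proteasome subunits were divided, with 17 higher, 11 lower and 11 not called of 39 (median 0.22 after TMM and 3.16 on library totals). The shares were 43.6% higher and 28.2% lower, against 32.4% and 31.1% of all genes. PSMA5 had 37.3, 38.3 and 38.5 CPM in WT and 143, 138 and 137 CPM in D146N, a difference of -1.08 (SE 0.13) after TMM and 1.87 on library totals. PSMB4 differed by -1.30 (SE 0.24) and 1.65, and PSMA4 by 0.14 (edgeR adjusted p = 0.264) and 3.09. Without WT fraction 8 replicate 3, PSMA4 was called after TMM (0.16, adjusted p = 0.0363).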
